A study of Rattus norvegicus with 8 samples.

Results

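The subject is 43 rat genes for subunits of respiratory complexes II to V and their close relatives, measured in liver under dietary iron deficiency. They are the genes whose symbol on the array matched Sdha, Sdhc or Sdhd, a name beginning with Uqcr other than Uqcrfs1, Cyc1, Cycs, a name beginning with Cox4 to Cox8, or a name beginning with Atp5. Where several probe sets shared a symbol, the brightest over the 8 arrays stood for the gene, and together they are 43 of 14217 named genes. By complex they are 3 genes of complex II, 7 of complex III, 17 of complex IV and 16 of complex V. Not every member is a subunit: Cox6c-ps1 is annotated as a pseudogene, Cox7a2l encodes a factor of respiratory supercomplexes and Atp5if1 an inhibitor of ATP synthase. A further 7 probe sets, among them both of Cycs (cytochrome c) and those of Cox7a2, Uqcrb, Atp5mc1 and Atp5mc2, carried several symbols and were not used.

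All livers were from 7-week-old male rats of the outbred Sprague-Dawley strain. The 4 iron-deficient livers were from rats on a purified diet that lacked ferric citrate, and the 4 control livers from rats on the same diet with it, based on AIN93G, with Avicel in place of cellulose in both. Both groups received food in daytime hours only over the last days, and were killed on day 17 after 1.5 h of feeding. Per the labels, 7 rats were on the iron-deficient and 6 on the control diet, without saying which of them gave the arrays, hemoglobin in the iron-deficient group was 42% of the control level, and each array was 1 biological replicate.

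The electron transport chain passes electrons from succinate (complex II) and NADH (complex I) through ubiquinone to complex III, cytochrome c and complex IV, where oxygen is reduced, and complex V uses the resulting proton gradient to make ATP. Iron enters this chain as iron-sulphur clusters and as heme. Among the members described here, Sdhc and Sdhd encode the membrane anchors that hold heme b of complex II, and Cyc1 encodes cytochrome c1 of complex III. All other members encode proteins without iron of their own. Subunits 4, 6a, 6b, 7a, 7b and 8 of complex IV exist in forms that differ between tissues.

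The deposited values ran from 5.32 to 16.099 on a log2 scale, with array medians from 7.1199 to 7.1207. Differences between arrays were very small for most probe sets, and probe sets for one gene differed in spread: among 9597 pairs of probe sets for one gene, 449 correlated above 0.9 over the arrays, and their SDs differed by a median factor of 2.73. The cause was not tested, and a difference is not read as a fold change here. Differences are given in millionths of a deposited log2 unit (1e-06), and beside them as the standardised difference, a multiple of the SD within groups. Among the members the within-group SD ran from 0.0439 to 75.0 millionths, with a median of 4.67, against 7.82 over all probe sets. The table has 8 decimals, so that 1 step of its last digit is 0.01 millionths. Of the members, 34 lay above the 90th percentile of levels.

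Tissue identity was checked first. All 12 hepatocyte markers were measured, Alb at a level of 15.002 and Hnf4a at 12.76, and 5 were higher and 7 lower in iron-deficient livers, none past the threshold. The 11 measured markers of striated muscle lay at levels from 5.81 to 7.48. Hamp, the gene of the iron hormone hepcidin, read 6.98, 10.58, 6.99 and 6.93 in iron-deficient livers, against 16.01, 15.99, 15.99 and 16.099 in control livers. Iron-deficient replicate 2 stood apart from its group in Hamp, and without it 33 of the 43 members were lower, none past the threshold. Actin, read at its 3' and 5' ends as a sign of RNA quality, gave a gap between the ends of 1.407 ± 7.95e-04 (SD, n = 4) in the iron-deficient group and 1.408 ± 8.89e-04 (n = 4) in the control group (two-sided p of 0.114 in an exact permutation test). For Gapdh the gap was 1.16963 ± 3.44e-05 under iron deficiency and 1.16974 ± 8.63e-05 under the control diet (two-sided p of 0.0571, exact permutation, the smallest possible being 0.0286). Both gaps were smaller under iron deficiency, and their part in what follows was not tested.

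The comparison asked how transcripts for these subunits differ under iron deficiency. In whole liver, fewer cells of a type and less RNA per cell cannot be told apart. Of the 43 members, 32 had a lower and 11 a higher mean in iron-deficient livers, and no member passed an adjusted p of 0.05 in limma, fitted over all 31042 probe sets. Over all genes 53% had a lower mean and 0.0422% passed in either direction. At an unadjusted p under 0.05 there were 7 members, all lower, where 7.5% of all genes were lower at that threshold, and 16.3% of members. The same 7 were lower in every iron-deficient liver than in every control liver, a pattern that 4.4% of all genes had, and no member had the opposite pattern, which 3.42% of genes had. The median standardised difference was -0.84 over the members and -0.07 over all genes. These 7 were Uqcr11 of complex III, Cox4i1, Cox6a1, Cox7c and Cox8a of complex IV, and Atp5f1b and Atp5pd of complex V. All of them were among the 34 members above the 90th percentile of levels, of which 28 were lower. Of the 7 members below the 60th percentile, 3 were lower and none had non-overlapping groups. A comparison with other genes of like level was not made. The directions of the members depended on how arrays were put on one scale. Under quantile normalization 5 of the 43 members were lower and 26 passed the threshold, where 40.6% of all genes were lower and 3.52% of probe sets passed. When that normalization omitted Hamp, 10 members were lower, 8 higher and 25 exactly tied, where 57.8% of all genes were lower and 8.03% tied. All 7 genes named above were among the tied ones. Under median centring 1 member was lower, where 9.19% of all genes were.

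**Figure D1:**
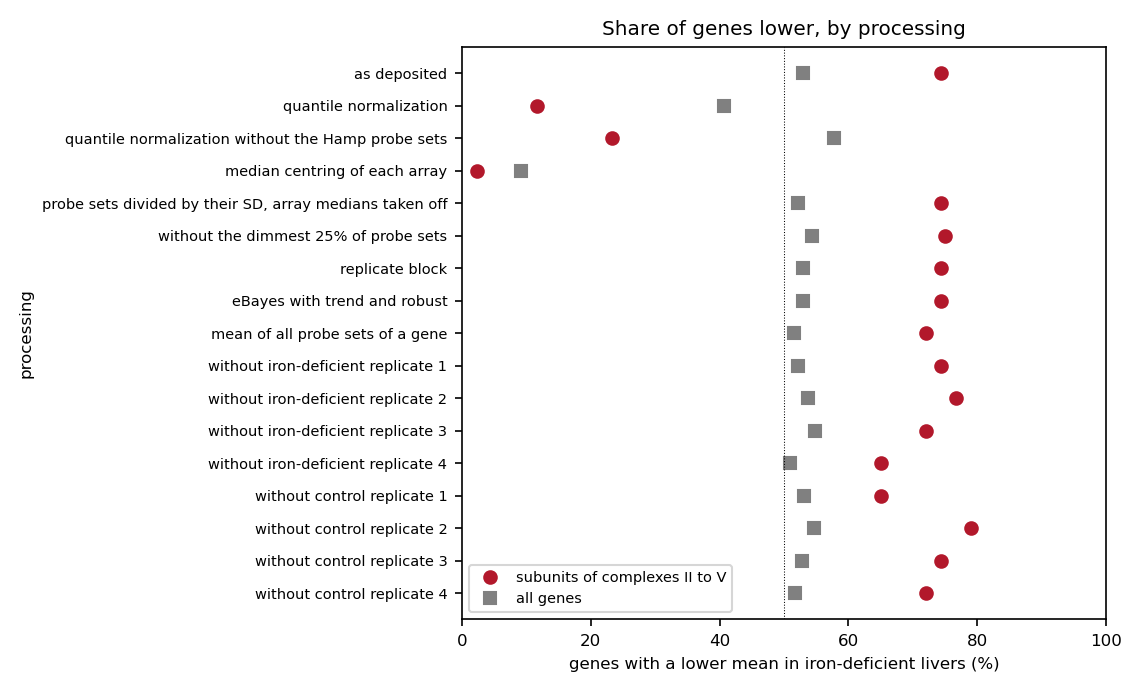
Share of genes with a lower mean in iron-deficient livers (x axis, %) under each way of processing (y axis), for the 43 subunit genes (circles) and all genes (squares). The circles lie right of the squares except under quantile normalization, with or without the Hamp probe set, and median centring (ties, which are 25 of the 43 genes without Hamp, count as not lower).

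**Figure D2:**
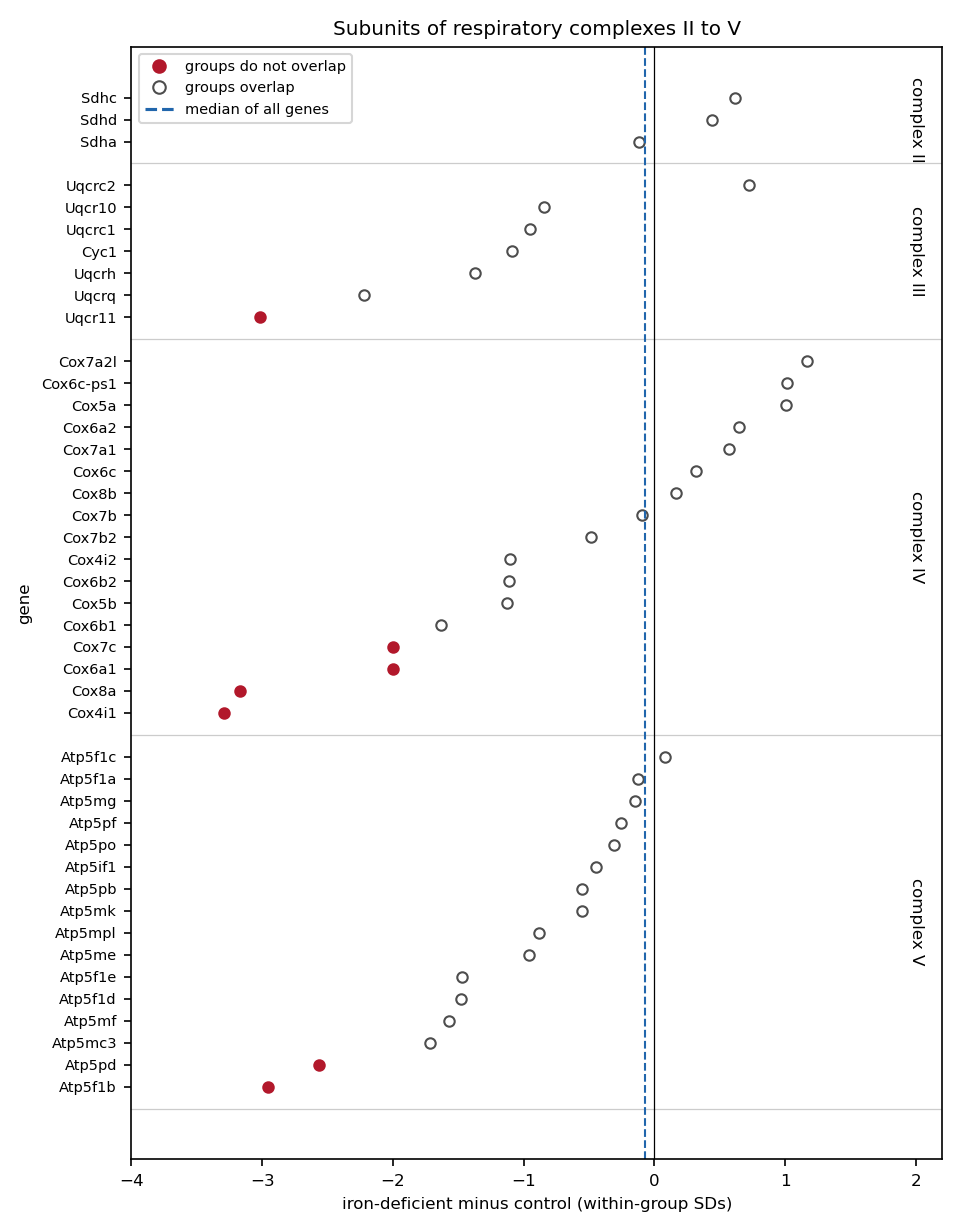
Standardised difference (x axis, iron-deficient minus control, in within-group SDs, n = 4 each) of each of the 43 genes (y axis), grouped by complex. Filled points are the 7 genes whose groups do not overlap, and the dashed line is the median of all 14217 genes at -0.07. Most points of complexes III and V lie left of 0, and 2 of the 3 of complex II lie right of it.

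Complex II oxidises succinate and links the citric acid cycle to the chain, and its 3 members showed no shared direction. Sdha, the flavoprotein that oxidises succinate, had values of -6.05, 5.48, -9.83 and 3.76 in iron-deficient livers, against 10.49, -18.2, -12.9 and 20.6 in control livers, as differences from the control mean in millionths. The control livers spanned a wider range than the iron-deficient ones, which lay inside it, and the difference was -1.66 ± 9.57 (SE, limma adjusted p = 0.974). Sdhc, 1 of the 2 heme-holding anchors, had 5.53, 4.15, -2.44 and 4.65 in iron-deficient livers, against 3.28, -1.21, -7.52 and 5.45 in control livers. Its groups overlapped, and it differed by 2.97 ± 3.32 (limma adjusted p = 0.802). Sdhd, the other anchor, had 0.765, 0.705, 0.0650 and 1.53 in iron-deficient livers, against 3.25, -0.885, 0.0150 and -2.38 in control livers. The iron-deficient livers lay inside the range of the control livers, with a difference of 0.767 ± 1.36 (limma adjusted p = 0.891), and its second probe set differed by 6.80 ± 21.7. The iron-sulphur subunit of the same complex, Sdhb, which is no member, differed by -2.40 ± 1.78.

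Complex III passes electrons from ubiquinol to cytochrome c, and 6 of its 7 members were lower, with a median standardised difference of -1.09. Uqcr11, a small supernumerary subunit, had values of -20.04, -15.2, -13.6 and -31.9 in iron-deficient livers, against -0.188, -4.25, 6.32 and -1.89 in control livers. Every iron-deficient liver was below every control liver, and iron-deficient replicate 4 was the lowest. The difference was -20.2 ± 4.57, or -3.01 standardised (limma adjusted p = 0.215). Cyc1, the heme protein cytochrome c1, had 4.93, -10.2, -16.7 and -28.2 in iron-deficient livers, against 0.0325, -7.36, 11.97 and -4.65 in control livers. Iron-deficient replicate 1 lay among the control livers and the other 3 below all of them, and the difference was -12.6 ± 7.80 (-1.09 standardised, limma adjusted p = 0.610).

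The core proteins of complex III had differences of opposite sign. Uqcrc1 (core protein 1) differed by -71.6 ± 50.7 and Uqcrc2 (core protein 2) by 11.3 ± 10.53, both with overlapping groups, and a second Uqcrc2 probe set differed by 2773 ± 1568. Uqcrc1 spread widely within both groups, from -164.5 to -13.3 in iron-deficient and from -90.8 to 101.8 in control livers. Uqcrh, the hinge protein, differed by -4.17 ± 2.16 and Uqcr10 by -1.01 ± 1.07, and in both, iron-deficient replicate 4 lay far below the other 3. Uqcrq, a small subunit on the quinone-binding side, had the narrowest spread of all members. Its difference of -0.0975 was -2.22 within-group SDs, but limma, which draws each spread towards a common value of 3.33 millionths, gave it an SE of 0.692 and an adjusted p of 0.980. The Rieske iron-sulphur protein gene Uqcrfs1, which is no member, differed by -0.238 ± 0.912.

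Complex IV reduces oxygen to water, and its members are given by tissue form. Of the 9 forms common in liver, 7 were lower, with a median standardised difference of -1.63. Among the 9, 4 (44.4%) had groups that did not overlap, all lower, against 4.4% of all genes. Of the 6 forms known from lung, heart, muscle or testis, 3 were lower and 3 higher, with a median of -0.16 and every pair of groups overlapping. The difference between these sets was not tested, and the tissue forms lay at levels from 6.29 to 7.00, below the median of all probe sets (7.12), where expression above background was not shown.

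Cox4i1, the common form of subunit 4 and an early partner in assembly of the complex, had values of -6.70, -10.7, -9.56 and -10.2 in iron-deficient livers, against 0.340, -1.92, 4.86 and -3.28 in control livers. The 4 iron-deficient livers lay close together below all control livers. The difference of -9.29 ± 2.03 was -3.29 standardised, the largest in size of any member (limma adjusted p = 0.201). Cox4i2, the lung form, which low oxygen induces in mammalian cells, had 0.180, -9.11, -1.42 and -13.8 in iron-deficient livers, against -2.13, 2.19, -4.498 and 4.43 in control livers. Its groups overlapped, with a difference of -6.03 ± 3.75 (limma adjusted p = 0.610) and a level of 7.00.

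Cox8a, the common form of subunit 8, had values of -15.46, -14.8, -7.81 and -21.2 in iron-deficient livers, against 0.920, -2.14, 4.74 and -3.52 in control livers. Iron-deficient replicate 4 was again the lowest, and control replicate 3 the highest. The difference was -14.8 ± 3.23, or -3.17 standardised (limma adjusted p = 0.201). Cox8b, the heart and muscle form, had 0.591, 1.39, -0.854 and 0.594 in iron-deficient livers, against -2.19, -1.87, -1.33 and 5.39 in control livers. Control replicate 4 alone was high, and the difference was 0.429 ± 1.91 (limma adjusted p = 0.966).

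Cox6a1, the liver form of subunit 6a, had values of -51.1, -39.9, -35.45 and -71.54 in iron-deficient livers, against -4.86, -13.8, 44.7 and -26.1 in control livers. The groups did not overlap, although control replicate 3 lay far above the other 3 control livers, and the difference was -49.50 ± 16.7 (-2.002 standardised, limma adjusted p = 0.354). Cox6a2, its heart and muscle counterpart, had 15.4, 0.131, 1.38 and 6.55 in iron-deficient livers, against -10.54, 3.87, -6.61 and 13.3 in control livers, with a difference of 5.86 ± 6.15 and overlapping groups. Cox7c had -4.003, -1.23, -2.79 and -5.503 in iron-deficient livers, against -0.603, -0.512, 2.30 and -1.18 in control livers. Its groups were only just apart, between iron-deficient replicate 2 and control replicate 4, and it differed by -3.38 ± 1.34 (-2.001 standardised, limma adjusted p = 0.417).

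Cox6b1, the common form of subunit 6b on the cytochrome c side, had values of -1.62, -4.15, -3.12 and -4.94 in iron-deficient livers, against -0.107, -1.93, 3.74 and -1.71 in control livers. Iron-deficient replicate 1 lay among the control livers, and the difference was -3.46 ± 1.59 (-1.63 standardised). Its testis form Cox6b2 had 1.13, -2.98, -4.02 and -2.14 in iron-deficient livers, against 1.30, -0.795, 0.809 and -1.31 in control livers. The groups overlapped, with a difference of -2.002 ± 1.40, as they did for the testis form Cox7b2, which differed by -0.569 ± 1.05. Cox7a1, the heart and muscle form of subunit 7a, had 10.4, -9.63, 43.50 and -3.45 in iron-deficient livers, against 4.04, -11.7, 7.33 and 0.359 in control livers. Iron-deficient replicate 3 alone was high there, and the difference was 10.2 ± 12.03 (limma adjusted p = 0.816).

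Among the other common forms Cox5b, which binds zinc, differed by -9.78 ± 5.89, Cox7b by -0.993 ± 7.02 and Cox6c by 0.435 ± 1.15 (a higher mean). Cox5a, which joins Cox4i1 early in assembly, had a higher mean, by 5.77 ± 3.94, with overlapping groups. A further Cox5a probe set was not used because it carried a second symbol. The supercomplex factor Cox7a2l was higher by 3.26 ± 2.01 and the pseudogene Cox6c-ps1 by 11.54 ± 7.73, with overlapping groups in each. Without these 2 genes and the tissue forms, 29 of 35 members were lower and the median standardised difference was -0.96.

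**Figure D3:**
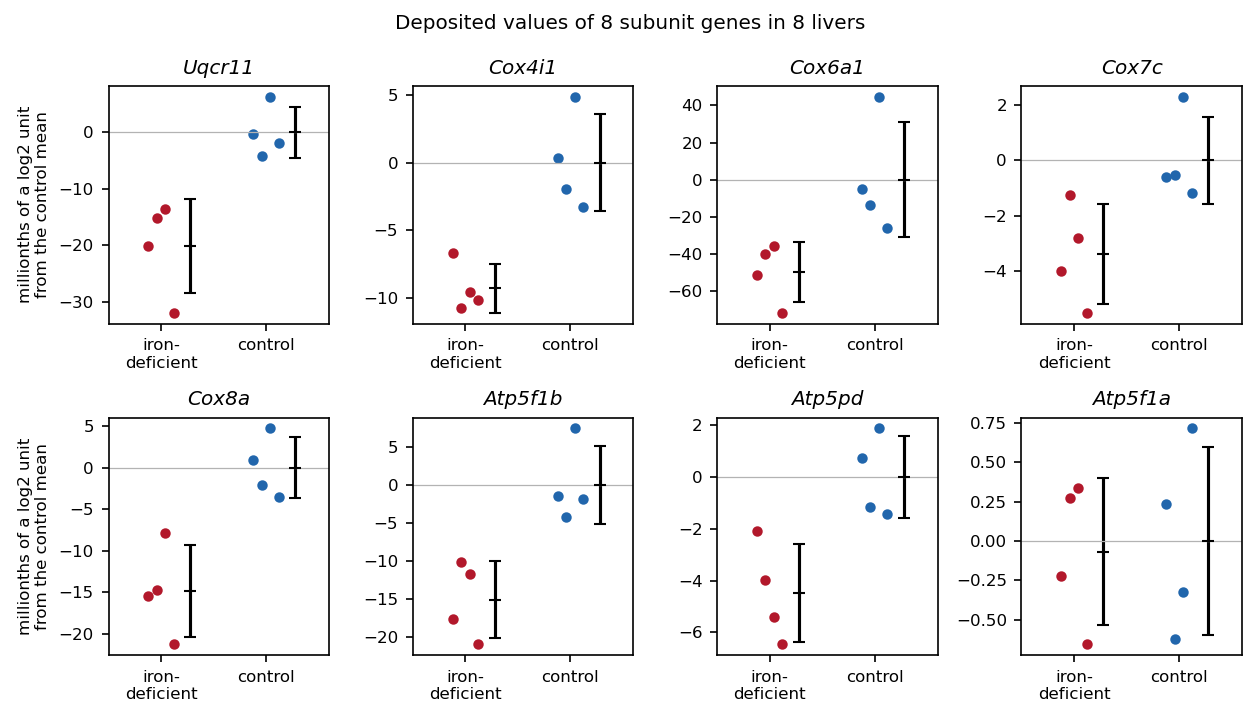
Deposited values (y axis, millionths of a log2 unit from the control mean) of the 7 genes whose groups do not overlap and of Atp5f1a, by diet (x axis). Points are single livers in order of replicate and bars are the mean and SD of 4. In the first 7 panels every iron-deficient point is below every control point, and in Atp5f1a the groups overlap.

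Complex V, the ATP synthase, had 15 of 16 members lower, with a median standardised difference of -0.72. With 1 array left out in turn this median ran from -1.11 to -0.54. Its F1 head differed from gene to gene. Atp5f1b, the catalytic beta subunit, had values of -17.52, -10.1, -11.6 and -20.9 in iron-deficient livers, against -1.48, -4.18, 7.45 and -1.78 in control livers. The groups did not overlap, and the difference was -15.03 ± 3.504, or -2.96 standardised (limma adjusted p = 0.222). Atp5f1a, the alpha subunit that alternates with beta in the same ring, had -0.225, 0.275, 0.335 and -0.655 in iron-deficient livers, against 0.235, -0.625, -0.325 and 0.715 in control livers. These groups overlapped throughout, with a difference of -0.0675 ± 0.780 (-0.13 standardised, limma adjusted p = 0.989).

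Atp5f1c, the rotating gamma shaft, was the only member of complex V with a higher mean, by 0.0375 ± 0.753. Atp5f1d (delta) differed by -9.98 ± 4.62 and Atp5f1e (epsilon) by -16.3 ± 7.52, with standardised differences of -1.48 and -1.47 and overlapping groups. In the peripheral stalk, which holds the head still, all 4 members were lower. Atp5pd, subunit d of the stalk, had values of -2.08, -3.99, -5.40 and -6.46 in iron-deficient livers, against 0.728, -1.17, 1.89 and -1.44 in control livers. Every iron-deficient liver lay below every control liver, and the difference was -4.49 ± 1.37 (-2.57 standardised, limma adjusted p = 0.318). The others, Atp5pb, Atp5pf and Atp5po, differed by -0.323 ± 0.795, -2.40 ± 6.28 and -1.05 ± 2.38.

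All 6 members of the membrane part were also lower, with standardised differences from -1.72 to -0.15. Atp5mc3, 1 of the genes for the c subunit of the rotor ring, differed by -1.11 ± 0.817, Atp5mf by -12.7 ± 5.52 and Atp5mpl, a small proteolipid, by -7.08 ± 5.49. Atp5me, Atp5mk and Atp5mg differed by -3.94 ± 2.86, -2.38 ± 2.96 and -0.435 ± 2.06. Atp5if1, which blocks ATP hydrolysis when respiration fails, differed by -4.24 ± 6.48 at its brightest probe set, and its 2 dimmer probe sets had higher means, by 32.1 ± 28.01 and 50.6 ± 39.1.

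The pattern differed from liver to liver as well as between the diets. Counted against each gene's own mean over the 8 arrays, 22, 20, 16 and 12 of the 43 genes were above it in iron-deficient replicates 1 to 4, and 35, 17, 29 and 28 in control replicates 1 to 4. Control replicate 2 therefore lay within the range of the iron-deficient livers. Iron-deficient replicate 4 held the lowest value of 22 genes, and control replicate 3 the highest of 17 and control replicate 1 the highest of 11. In complex V alone, 2 of 16 genes were above their mean in iron-deficient replicate 4 and all 16 in control replicate 1. Over all genes the share above the mean was 43.4% in iron-deficient replicate 4, the lowest of the 8 arrays, and from 47.4% to 53.0% in the others. Without iron-deficient replicate 4, 28 of the 43 members were lower and the median standardised difference was -0.59, and without control replicate 1 these were 28 and -0.54.

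**Figure D4:**
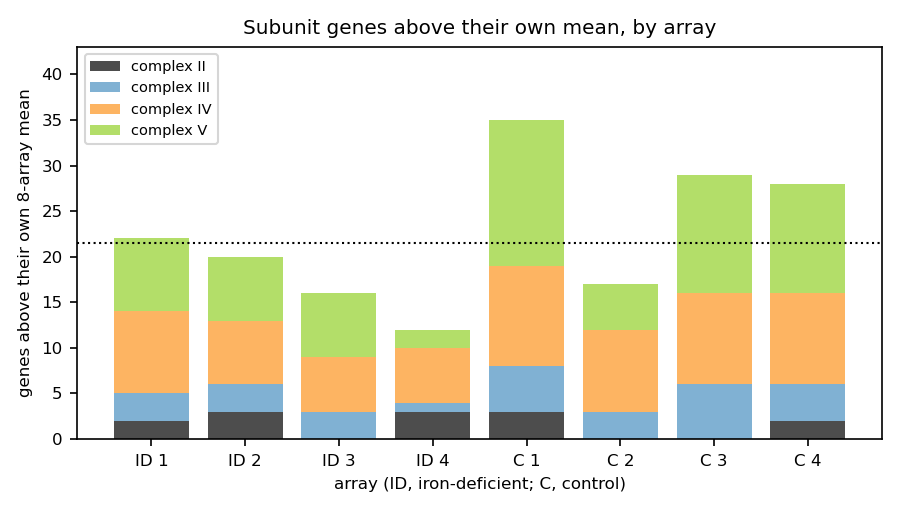
Number of the 43 subunit genes whose value lies above that gene's mean over all 8 arrays (y axis), in each liver (x axis, iron-deficient replicates 1 to 4, then control replicates 1 to 4), stacked by complex. The dotted line is at one member in 2, and control replicate 2, with 17 genes, lies below it with 3 of the iron-deficient livers.

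**Figure D5:**
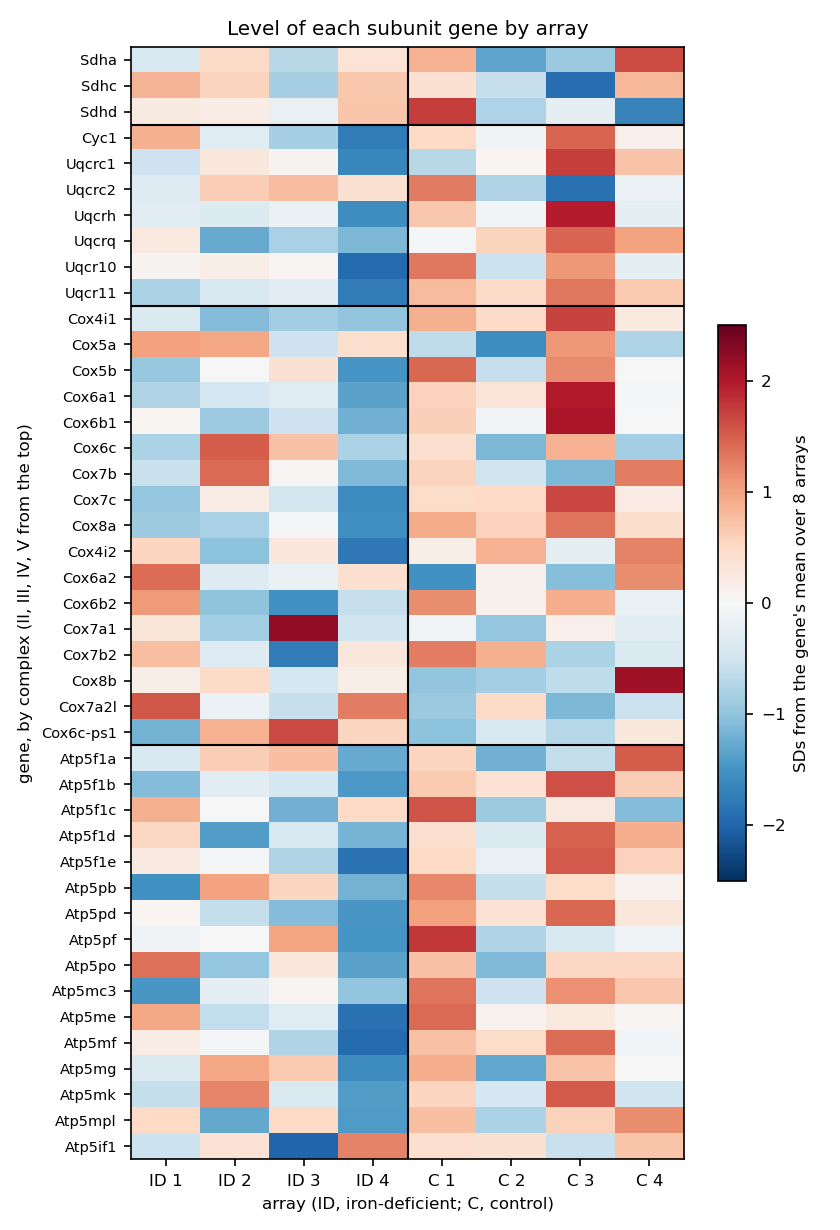
Level of each of the 43 genes (rows, complexes II to V from the top) in each liver (columns), as SDs from the gene's mean over the 8 arrays. Blue is below and red above the mean, and the column of iron-deficient replicate 4 holds the lowest value of 22 genes.

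Promoters are given for 4 of the 7 genes with non-overlapping groups, all 7 of them lower. Uqcr11, Cox6a1 and Atp5pd had no promoter in the RefSeq table used and were not searched. The sequences are from RefSeq (rat build GRCr8, which need not be the build of the array's design), 5′ to 3′ on the gene's strand, from 150 bases before the start to 30 after it, and capitals mark the ETS core CCGGAAG on either strand.
Cox4i1, chr19:65630233-65630412, plus strand: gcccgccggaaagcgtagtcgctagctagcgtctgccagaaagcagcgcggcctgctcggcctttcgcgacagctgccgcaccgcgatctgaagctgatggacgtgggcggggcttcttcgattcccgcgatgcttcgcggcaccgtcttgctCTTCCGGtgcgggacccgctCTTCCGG
Cox8a, chr1:213833594-213833773, minus strand: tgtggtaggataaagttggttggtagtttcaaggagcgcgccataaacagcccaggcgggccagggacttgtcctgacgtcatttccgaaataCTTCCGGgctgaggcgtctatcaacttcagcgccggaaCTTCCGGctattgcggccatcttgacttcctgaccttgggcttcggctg
Cox7c, chr2:18579141-18579320, minus strand: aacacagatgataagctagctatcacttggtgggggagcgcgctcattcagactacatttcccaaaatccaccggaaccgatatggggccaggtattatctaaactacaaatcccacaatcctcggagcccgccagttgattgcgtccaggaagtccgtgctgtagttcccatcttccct
Atp5f1b, chr7:1099908-1100087, plus strand: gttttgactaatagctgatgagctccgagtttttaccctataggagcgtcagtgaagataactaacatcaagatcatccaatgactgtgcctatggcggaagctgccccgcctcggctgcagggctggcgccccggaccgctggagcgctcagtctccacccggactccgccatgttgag

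GABP, also called nuclear respiratory factor 2, binds the ETS core and is known to act at rodent promoters of complex IV subunits. Cox4i1 held 2 matches, at bases 4 and 24 after the start, and Cox8a held 2, beginning 57 and 19 bases before it, while Cox7c and Atp5f1b held none. Over the full window of 250 bases before to 50 after the start, promoters of 36 members were in the RefSeq table, and 12 of them (33.3%) held CCGGAAG, against 15.1% of 11701 array genes and 9.22% of all 27457 promoters. The NRF1 motif depended on how strictly it was written. Its full consensus was in 1 of 36 (2.78%), against 2.37% of array genes and 1.36% of all promoters, and a looser form, GCGC and TGCGC with any base between them, in 7 (19.4%), against 8.495% and 4.71%. The YY1 core CAAGATGG was in 5 (13.9%), against 3.23% and 2.51%. CCAAT was in 14 (38.9%), against 37.3% and 37.7%, and the GC box GGGCGG also in 14, against 57.5% and 34.9%. Both strands were searched, and none of the 16 CCGGAAG matches overlapped a match of another motif. In the full windows of the genes shown, Cox8a held the YY1 core once, Atp5f1b held CCAAT 3 times and Cox8a once, and Cox4i1 held the GC box 2 times and Atp5f1b once. These are matches of letters only, and no difference between members with and without a motif was tested.

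Other genes of the pathway were read from the same fit. Of 35 genes with Nduf names, most of them complex I subunits, 31 were lower, none past the threshold. Among the 35, 10 (28.6%) had groups that did not overlap, all lower, a pattern that 4.4% of all genes had. Without Ndufa4, now placed in complex IV, and its relative Ndufa4l2, 29 of 33 were lower and 9 had groups that did not overlap. For the 35 genes the median standardised difference was -1.39, beside -0.84 for complexes II to V, and the difference between the 2 sets was not tested. Ndufb5 differed by -10.5 ± 1.78 and Ndufa4l2, which low oxygen induces in other tissues, by -18.0 ± 2.88 (limma adjusted p = 0.131 and 0.123). The level of Ndufa4l2 was 7.13, near the median of all probe sets (7.12). Of 30 measured assembly factors, 18 were lower and 12 higher. Higd2a, a factor for assembly of complex IV, was the one called. It had values of -22.0, -31.5, -24.3 and -28.8 in iron-deficient livers, against -2.005, 1.325, 0.915 and -0.235 in control livers. Every iron-deficient liver was below every control liver, and Higd2a fell by 26.6 ± 2.27 millionths (limma adjusted p = 0.0376). That call was lost with any 1 array left out (limma adjusted p from 0.0517 to 0.206), with the replicate block (0.301), with the trend and robust variance model (0.0770) and with each probe set scaled by its SD (0.474). The sign of its difference turned under quantile normalization, to 414, without the Hamp probe set, to 59.1, and under median centring, to 23.9 millionths, none past the threshold.

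Of 20 regulators of mitochondrial biogenesis, 12 were lower and 8 higher, none past the threshold. Among the 20, 5 (25%) had groups that did not overlap, all lower, a pattern that 4.4% of all genes had. They were Nrf1, Polg, Polg2, Polrmt and Myc. Nrf1, a transcription factor of respiratory chain genes, differed by -9.99 ± 2.40 and Myc, a growth regulator, by -33084 ± 4550 (limma adjusted p = 0.233 and 0.0890). Myc lay at a level of 6.96, below the median of all probe sets (7.12), where expression above background was not shown. Ppargc1a, the coactivator of mitochondrial biogenesis, differed by -4.29 ± 19.4 and Tfam, which maintains mitochondrial DNA, by -4.74 ± 5.68. Of 13 measured genes that link low oxygen to the chain, 8 were higher and 5 lower, none past the threshold. Ndufa4l2 is on this list too, and Lonp1, the mitochondrial protease that low oxygen induces together with Cox4i2 in mammalian cells, differed by -10.8 ± 3.00, with every iron-deficient liver below every control liver, and Bnip3, a mitophagy receptor, by 1377 ± 373 with the groups in the opposite order.

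Markers of other liver cell types were read in the same contrast. Over all genes 3.42% had groups that did not overlap in the higher direction, a share to set beside each such count here. Of 9 measured endothelial markers 7 were higher, none past the threshold, 6 of them with groups that did not overlap. The median standardised difference over the 9 was 3.37. Their summed deposited levels ran from 82.0017 to 82.0043 in iron-deficient and from 81.9968 to 81.9979 in control livers. Flt1 differed by 2461 ± 327 and Egfl7 by 421 ± 53.9. Of 10 stellate cell markers 8 were higher, 4 of them without overlap, and the median standardised difference over the 10 was 1.67. Their sums ran from 77.982 to 77.995 in iron-deficient and from 77.976 to 77.980 in control livers. Lrat differed by 282 ± 51.5 and Dcn by 2759 ± 623. A sum weighs most the genes with large differences in deposited units. In the stellate list these were Lum (3835 ± 1944, groups overlapping), Dcn and Col3a1 (1991 ± 461). In the endothelial list they were Flt1 and Stab2 (2254 ± 371). In the erythroid list they were Alas2 (7986 ± 4452), Hba-a3 (-7533 ± 5535) and Hbb (-1519 ± 2177), with overlapping groups in each. Alas2 and Hba-a3 therefore pulled the erythroid sum in opposite directions. Lum lay at a level of 5.94, below the median of all probe sets (7.12), where expression above background was not shown. All 9 Kupffer cell markers were higher, 1 without overlap, with sums from 87.8341 to 87.8352 in iron-deficient and from 87.8338 to 87.8349 in control livers, and Mrc1 differed by 166 ± 39.8 and Clec4f by 50.6 ± 27.9. Of 7 erythroid markers 4 were higher, with sums from 58.325 to 58.362 in iron-deficient and from 58.333 to 58.374 in control livers, Slc4a1 differing by 70.8 ± 33.1 and Gata1 by -5.11 ± 1.92. Hepatocyte sums ran from 163.2449 to 163.2470 in iron-deficient and from 163.2447 to 163.2463 in control livers, with Ttr at -0.168 ± 0.694 and Serpina1 at 0.225 ± 0.693, and muscle sums from 71.39152 to 71.39161 in iron-deficient and from 71.39147 to 71.39158 in control livers, with Myh4 at 5.70 ± 4.26 and Tnni3 at 8.00 ± 3.95. No marker was at 0, since this scale has none, and the part of these shifts in the values of the subunit genes was not tested.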

How the data were processed

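Liver RNA of 8 rats, 4 per diet, was measured on 1-colour Affymetrix arrays, per the labels from 2 ug of total RNA made into biotin-labelled cRNA. The authors deposited 1 log2 value per probe set and array, a scale read from the values themselves, on which arrays share a common scale and genes are not centred. The software and method used for the deposited log2 values are not given in the sources used here.

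Of 31099 probe sets, 57 controls were left out. Of the other 31042, 20826 had 1 symbol in the platform annotation, 436 several and 9780 none. Iron-deficient minus control was fitted over all of them in R 4.3.3 with limma 3.58.1 (lmFit, then eBayes), with Benjamini-Hochberg adjustment, a threshold of 0.05 and no block. SEs are limma's. The number of arrays limits the precision. The script was tested on simulated data.

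Per-array values are given for Sdha, Sdhc, Sdhd, Cyc1, the F1 alpha and beta genes, the isoforms used here of complex IV subunits 4, 6a, 6b, 7a and 8, and up to 4 members per complex past the threshold or with groups that do not overlap. From each other list the called genes, or the 2 with the largest standardised difference, are named, and other named genes were chosen after their values were seen. Members and lists were chosen with earlier results of these data known. The motifs and the promoters shown were chosen after the values were seen, and the full NRF1 consensus after its looser form.

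Alternatives were quantile normalization with and without the Hamp probe set, median centring, scaling of each probe set, a filter on dim probe sets, a replicate block, leaving out each array, another variance model and other probe sets of a gene.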

Additional observations from a re-analysis of the deposited data

Results flagged for a closer look

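In 5 of 86 groups of 4 livers (43 genes, 2 diets), 1 liver stood apart by Dixon's test, in which the gap to the nearest other value, as a share of the group's range, is above the critical value for 4 values. Chance alone flags about 1 group in 20. Uqcrh had its lowest iron-deficient value in replicate 4, at -7.67 millionths from the control mean where the other 3 lay between -3.30 and -2.69, so the gap took 0.878 of the range. Uqcr10 had its lowest iron-deficient value in replicate 4, at -2.88 millionths from the control mean where the other 3 lay between -0.445 and -0.305, so the gap took 0.946 of the range. Cox8b had its highest control value in replicate 4, at 5.39 millionths from the control mean where the other 3 lay between -2.19 and -1.33, so the gap took 0.886 of the range. Atp5po had its lowest control value in replicate 2, at -4.01 millionths from the control mean where the other 3 lay between 1.09 and 1.78, so the gap took 0.881 of the range. Atp5me had its highest control value in replicate 1, at 4.17 millionths from the control mean where the other 3 lay between -1.75 and -0.870, so the gap took 0.851 of the range. Of these 5 values 2 were in iron-deficient replicate 4, both low and both in complex III.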

How the results depend on the processing

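Scaling of each probe set, the dim filter (40 of the 43 members left), the trend and robust variance model, the replicate block and other probe sets of a gene left between 30 and 32 members lower, none past the threshold, with a median standardised difference from -0.86 to -0.84. Scaling left 6 members with non-overlapping groups, and the others 7. With the replicate block 32 members stayed lower, 7 without overlap, and none passed, where 1 probe set in all passed against 10 without it. Replicate numbers were not taken as pairs: same-numbered arrays had deviations correlated at -0.111, 0.0245, -0.0251 and -0.0773. Only iron-deficient replicate 2 correlated best with its own number, and no control array did. With 1 array left out in turn, 28 to 34 members were lower, 0 passed, 7 to 13 had non-overlapping groups and the median was -0.91 to -0.54. The medians of complexes II to V ran from 0.13 to 0.82, -1.40 to -0.76, -0.85 to -0.11 and -1.11 to -0.54. The 13 came without iron-deficient replicate 1, where 7.15% of all genes had that pattern. Without the tissue forms, Cox6c-ps1 and Cox7a2l, chosen after seeing the data, 29 of 35 were lower and the median of complex IV was -1.63.

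Quantile normalization gave 26 members past the threshold, 5 lower and 0 without overlap in the lower direction, and called 1093 probe sets in all, against 10. This follows in part from its construction. Hamp ranked 1 from the top in every control array and between 1471 and 17735 in iron-deficient arrays, so every probe set between these places moves up by 1 place. For 24 of the 43 members this single place was the whole difference, since with Hamp left out they held the same rank in all 8 arrays. Quantile normalization without the Hamp probe set left 10 members lower, 25 tied and 8 higher, 1 without overlap. No member was called there, and 83 probe sets were called in all. A median standardised difference could not be given for either form of quantile normalization, because within-group SDs were 0. Median centring left 1 member lower and 0 without overlap, none called, and turned the median to 0.16, with complex III at 0.16, complex IV at 0.17 and complex V at 0.16. It moved the median gene by 50.6 millionths, more than the size of the difference of 42 of the 43 members.

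In millionths, these genes changed sign (or, for Sdhc and Sdhd, stayed higher and gained a call) under quantile normalization: Sdha (877.3), Sdhc (3898), Sdhd (2161), Cyc1 (1412), Uqcr11 (3176), Cox4i1 (7391), Cox6a1 (2095), Cox6b1 (6171), Cox7c (5437), Cox8a (9184), Cox4i2 (73.7), Cox6a2 (-41.7), Cox7a1 (-93.48), Atp5f1a (1435), Atp5f1b (4242) and Atp5pd (2955). Without the Hamp probe set these turned: Cox4i2 (23.7), Cox6a2 (-41.7) and Cox7a1 (-93.48). In that setting these had no direction left, with a difference of 0: Sdha, Sdhc, Sdhd, Cyc1, Uqcr11, Cox4i1, Cox6a1, Cox6b1, Cox7c, Cox8a, Atp5f1a, Atp5f1b and Atp5pd. Under median centring these turned: Sdha (48.9), Cyc1 (38.03), Uqcr11 (30.4), Cox4i1 (41.3), Cox6a1 (1.08), Cox6b1 (47.1), Cox7c (47.2), Cox8a (35.8), Cox4i2 (44.6), Cox6b2 (48.6), Atp5f1a (50.51), Atp5f1b (35.6) and Atp5pd (46.1). With 1 array left out these changed sign, over ranges of Sdha -7.72 to 5.20, Sdhd -0.0275 to 1.85, Cox7a1 -0.895 to 16.8, Cox8b -0.302 to 2.23 and Atp5f1a -0.276 to 0.171. The other 13 genes with per-array values kept their sign whichever array was left out. Spread of 0.0439 to 75.0 millionths between members limits comparison of sizes.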
